A study of Mus musculus with 36 samples.

Results

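The proteasome genes were defined here as the symbols that start with Psma, Psmb, Psmc, Psmd, Psme, Psmf or Psmg, that were listed on 1 row, and whose mean over the 36 libraries was at least 1 FPKM (sequenced fragments per unit of transcript length and of library size). The prefixes gave 50 symbols, and 46 of them passed, out of 24066 symbols on 1 row in the liver tables. Psma8, Psmb11, Psmc3ip and Psme2b lay below 1 FPKM, with means of 0.26, 0.00095, 0.27 and 0.26, and were left out. The immunoproteasome subunits Psmb8, Psmb9 and Psmb10 were set apart from the other 43 genes. The nearest members to the limit were Psmd10, at 5.45 FPKM, and Psmf1, at 7.40 FPKM.

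Liver poly(A) RNA came from wild-type male C57BL/6JRj mice aged 16 weeks, housed 5 per cage with food at all times. For 4 weeks, mice were exposed each day from ZT0 to ZT8 (ZT, zeitgeber time, with lights on at ZT0) to intermittent hypoxia (IH) of 60 cycles per hour with a nadir of 5% inspired oxygen, and control mice received matched cycles of air. Livers were collected every 4 h at 6 times of day, from 3 mice per time and condition, which gave 36 libraries in 12 groups. Animals are separate, so the P values measure the spread between these mice.

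The proteasome is the main protease for proteins tagged with ubiquitin in the cytosol and nucleus. Its 20S core is a barrel of stacked alpha and beta rings with the catalytic sites inside, and its 19S regulatory particle recognizes ubiquitin chains, removes them and threads the unfolded protein into the core with a ring of ATPases. Immune stimuli such as interferon gamma induce catalytic subunits that replace the constitutive ones and favour the production of antigenic peptides, while chaperones guide the assembly of the rings, and further activators can cap the core in place of the 19S particle.

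The libraries had the profile of liver: hepatocyte markers summed to between 35876 and 62370 FPKM, against 37.2 to 300 FPKM for 10 leukocyte markers, and no marker was at 0 in all libraries. The replicate 2 library of control ZT12 stood apart. Its FPKM values summed to 758113, against 540095 to 579428 in the other 35 libraries, and its leukocyte markers summed to 299.9 FPKM, against at most 92.3 elsewhere. Replicates of control ZT12 correlated at 0.949 at the lowest, and the median SD of the members there was 0.32 on the log2 scale, against at most 0.13 in the other groups. In that library the 20S subunit Psmb4 was at 226 FPKM, above the 88.7 to 127 of the others, and the 19S subunit Psmd11 was at 16.1 FPKM, below their 29.4 to 60.0. Psmd11 did not stand for the 19S genes. After centring each gene on the log2 scale, their mean was 0.09 in that library, against -0.09 and -0.10 in its group. The 20S mean was 0.52, against 0.16 and -0.01. Saa1, an acute-phase gene, was above 10000 FPKM in replicate 2 of control ZT12, replicate 2 of IH ZT0 and replicate 3 of control ZT16. Counts that rest on these libraries are given with and without them, and fitted peaks and amplitudes are those of all libraries unless stated.

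Levels per unit of transcript length ordered the members by role. The 7 constitutive beta-ring genes had mean levels from 71.0 FPKM for Psmb2 to 111 FPKM for Psmb7, and the 7 alpha-ring genes from 38.7 FPKM for Psma5 to 97.2 FPKM for Psma4. The 6 ATPase genes of the 19S particle lay between 37.6 FPKM (Psmc2) and 56.5 FPKM (Psmc1), and its 11 non-ATPase genes between 25.6 FPKM (Psmd14) and 62.1 FPKM (Psmd8). Lower levels were found for the assembly chaperones, from 5.45 FPKM for Psmd10 to 15.8 FPKM for Psmg1, and for the immunoproteasome subunits, from 10.5 FPKM for Psmb9 to 20.0 FPKM for Psmb10. The activators ranged from 11.1 FPKM for Psme4, which caps the core in the nucleus, to 79.3 FPKM for Psme1, a subunit of the interferon-inducible cap. Members together made up 0.341 to 0.434% of the summed FPKM of a library. The ranges of single genes within a role overlap across libraries, so this order is a description.

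Promoters are shown for the 3 members with the smallest P at ZT4 and ZT8 whose promoter RefSeq held, the hours in which the daily hypoxia ran. These are Psmd14, the deubiquitinase of the 19S lid, and Psmd1, a scaffold of the 19S base, both lower in IH, and Psmd9, a chaperone of 19S base assembly, which was higher. Each sequence is 300 bases on the plus strand of GRCm38.p6 from RefSeq, 250 before the start RefSeq gives and 50 from it, at chr2:61711444-61711743 for Psmd14, chr1:86064369-86064668 for Psmd1 and chr5:123227940-123228239 for Psmd9. In each the start was also the first base of a coding transcript in GENCODE, which lists further transcripts, none of them coding, that begin upstream, from 86064387 for Psmd1 and from 123169413 for Psmd9. Capitals mark a match to the E-box CACGTG bound by clock factors, to the core of the antioxidant response element TGACNNNGC, to the interferon response element (GAAA, 2 bases of any kind and GAAA) or to the CCAAT box, each searched on both strands.
Psmd14: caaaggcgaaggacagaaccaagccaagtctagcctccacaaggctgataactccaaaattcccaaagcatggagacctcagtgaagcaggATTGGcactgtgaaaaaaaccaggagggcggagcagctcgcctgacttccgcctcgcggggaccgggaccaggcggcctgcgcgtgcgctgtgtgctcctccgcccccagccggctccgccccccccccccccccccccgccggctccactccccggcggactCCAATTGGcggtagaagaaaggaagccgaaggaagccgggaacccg
Psmd1: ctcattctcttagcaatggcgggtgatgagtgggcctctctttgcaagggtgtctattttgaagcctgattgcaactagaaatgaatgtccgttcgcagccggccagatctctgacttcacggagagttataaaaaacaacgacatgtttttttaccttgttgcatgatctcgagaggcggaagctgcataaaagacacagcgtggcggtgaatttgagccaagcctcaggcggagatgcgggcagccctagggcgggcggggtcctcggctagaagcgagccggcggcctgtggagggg
Psmd9: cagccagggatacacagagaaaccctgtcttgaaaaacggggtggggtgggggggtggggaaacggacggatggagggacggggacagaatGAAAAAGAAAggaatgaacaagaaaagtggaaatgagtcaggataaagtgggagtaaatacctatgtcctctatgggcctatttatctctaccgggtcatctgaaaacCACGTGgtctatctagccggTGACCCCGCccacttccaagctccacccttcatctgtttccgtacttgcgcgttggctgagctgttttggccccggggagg
Psmd14 had 3 CCAAT boxes, of which 2 overlap, Psmd1 had no match, and Psmd9 had an E-box at -51, an antioxidant core at -31 and an interferon element at -159 from the start. RefSeq promoters were found for 39 of the 46 members. The E-box occurred in 4 of them (Psma4, Psmb10, Psmd9 and Psme3), 10.3%, and in 7.15% of all 32851 promoters. The antioxidant core occurred in 6 of the 39, 15.4%, against 12.4% of all promoters, the interferon element in 5, 12.8%, against 3.44%, and the CCAAT box in 13, 33.3%, against 37.4%. A member counted if any of its promoters matched, and 3 members had several starts, while the shares of all are per promoter. These are matches of letters and not sites of binding.

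**Figure D1:**
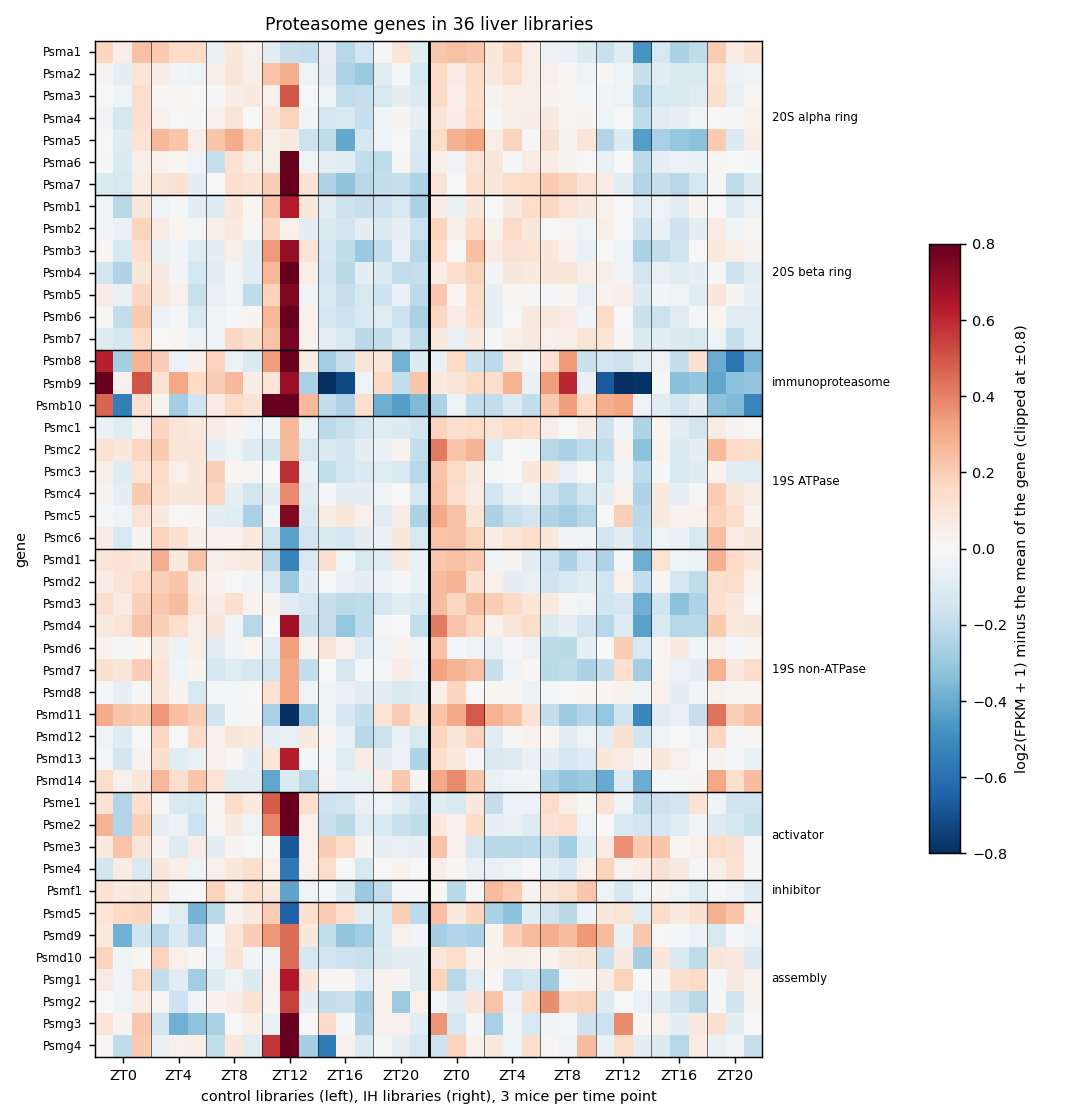
Heatmap of the 46 proteasome genes (rows, by role) in the 36 libraries (columns, 3 mice per time point, control left and IH right), as log2(FPKM + 1) minus the mean of the gene. In IH the 19S genes are on average high at ZT20 and ZT0 and low at ZT8 and in replicates 1 and 3 of ZT12. Their mean is 0.01 in replicate 2 of IH ZT12. The middle library of control ZT12 stands apart.

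To ask whether the members follow a daily rhythm, a cosine of 24 h was fitted within each condition to log2(FPKM + 1) and tested with limma at a nominal P of 0.01. In control, 7 of the 43 genes were rhythmic (16.3%), against 20% of the 13215 genes tested. In IH, 27 of the 43 were rhythmic (62.8%), against 39.9% of all genes. The 7 were rhythmic in both conditions (15.5% of all genes were), 20 in IH alone (46.5%, against 24.4%), and 0 in control alone (4.55% of all genes). With a Benjamini-Hochberg adjusted p of 0.05 in place of the nominal P, the counts were 7 in control (20.1% of all genes) and 29 in IH (47.9% of all genes). The count in control depended on the library that stands apart: without replicate 2 of control ZT12, 16 of the 43 genes were rhythmic in control (37.2%, against 27.1% of all genes), and 14 of these were also rhythmic in IH (32.6%, against 20.9% of all genes). With JTK_Cycle, a rank test, the counts were 13 in control and 25 in IH (19.2% and 33.5% of all genes), and with a spread shared by the conditions they were 14 and 16 (28.5% and 31.5% of all genes). Without the ZT12 libraries they were 13 and 25 (19.7% and 37.7% of all genes). Without the libraries with Saa1 above 10000 FPKM they were 14 and 29 (27.4% and 42.4% of all genes). In control the count fell to 2 with a median of ratios as the scaling (22.1% of all genes) and to 4 after removing the dependence on gene length in each library (22.5% of all genes), and it was 15 (24.6% of all genes) without replicate 1 of control ZT0 and replicate 2 of control ZT12. The count in IH thus exceeded that in control by a narrow margin under a shared spread. In bulk liver, fewer cells of a type and less RNA per cell cannot be told apart, for these and all later differences.

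The rhythm calls in IH reached most of the 19S particle and alpha ring. They held for 6 of 6 ATPase genes, 7 of 11 non-ATPase genes, 6 of 7 alpha-ring genes (all but Psma6) and 4 of 7 beta-ring genes (Psmb2, Psmb3, Psmb4 and Psmb7). In control, the calls were 5 non-ATPase genes (Psmd1, Psmd2, Psmd3, Psmd11 and Psmd14) and 2 alpha-ring genes (Psma1 and Psma5). Without replicate 2 of control ZT12, the control calls were 16 (37.2%, against 27.1% of all genes). They then also held the ATPase genes Psmc1, Psmc2, Psmc3 and Psmc6, the non-ATPase genes Psmd4, Psmd7 and Psmd12, the alpha-ring gene Psma7 and the chaperone Psmd10. Among the others, Psme3, which encodes a nuclear activator, and the chaperones Psmd5, Psmd9 and Psmg2 were rhythmic in IH, and the inhibitor Psmf1 was not at this nominal P, although it passed an adjusted p of 0.05 in limma (adjusted p = 0.0315). A call in IH and not in control is no test of a difference, which is given further on.

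The smallest P in IH was that of Psmd14. In control, its values in FPKM were 28.2, 26.1 and 27.0 at ZT0, 30.7, 27.9 and 29.7 at ZT4, 27.5, 23.7 and 23.7 at ZT8, 18.8, 23.3 and 21.6 at ZT12, 25.8, 24.4 and 24.4 at ZT16, and 26.5, 29.7 and 25.8 at ZT20. In IH they were 31.4, 33.2 and 29.7 at ZT0, 24.4, 24.9 and 25.0 at ZT4, 21.1, 20.2 and 20.4 at ZT8, 18.9, 23.6 and 19.1 at ZT12, 25.0, 25.1 and 25.7 at ZT16, and 31.6, 27.9 and 30.2 at ZT20. The IH mice were all above the control mice at ZT0 and all below them at ZT4 and ZT8, and overlapped with them at ZT12, ZT16 and ZT20. The fitted peak was at ZT0.70 in control (amplitude 0.18 on the log2 scale, adjusted p = 0.0205, limma) and at ZT22.0 in IH (amplitude 0.32, adjusted p = 1.94e-06).

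Psmd11, a 19S lid subunit, had the next smallest P in IH. In IH it was at 49.8, 52.7 and 60.0 FPKM at ZT0 and at 34.0, 37.9 and 29.4 FPKM at ZT12, and in control at 52.4, 49.7 and 49.2 FPKM at ZT0 and at 35.3, 16.1 and 34.8 FPKM at ZT12. At both times the conditions overlapped, and the low control value belongs to the library that stands apart. Its fitted amplitude was 0.37 in IH (peak ZT23.4, adjusted p = 5.32e-06, limma) and 0.39 in control (peak ZT0.53, adjusted p = 0.0116). Without the 3 libraries with Saa1 above 10000 FPKM the amplitude in control was 0.26, with a peak at ZT0.72.

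Psmd3, a lid subunit, had the smallest P in control, 3.01e-05, with a peak at ZT3.97 and an amplitude of 0.19. In IH its peak was at ZT1.64, with an amplitude of 0.24 and a nominal P of 8.78e-07. At ZT20 the 3 IH mice (46.1, 44.7 and 42.0 FPKM) were all above the control mice (38.4, 39.4 and 38.9 FPKM), and at the other 5 time points the groups overlapped. Psmd4, a ubiquitin receptor of the 19S particle, was at 62.7, 57.2 and 57.8 FPKM at ZT20 in IH and at 53.5, 54.2 and 47.1 FPKM in control, again without overlap. It was rhythmic in IH (peak ZT0.21, adjusted p = 3.54e-05, limma) and had a nominal P of 0.285 in control, which was 0.000749 without replicate 2 of control ZT12.

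The alpha-ring genes Psma1 and Psma5 were rhythmic in both conditions. For Psma1 the peak was at ZT2.21 in control (adjusted p = 0.00285, limma) and ZT0.47 in IH (adjusted p = 6.81e-05). For Psma5 it was at ZT5.41 in control (adjusted p = 0.00720, limma) and ZT1.79 in IH (adjusted p = 0.000481). Psma5 was at 38.4, 35.7 and 41.5 FPKM at ZT0 in control and at 42.7, 47.0 and 48.1 FPKM in IH. At ZT8 it was at 44.9, 47.3 and 43.8 FPKM in control and at 41.8, 38.9 and 41.1 FPKM in IH. The IH mice were thus all higher at ZT0 and all lower at ZT8.

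Fitted peaks were earlier in IH for each of the 7 genes rhythmic in both conditions, from 1.15 h earlier for Psmd11 to 3.96 h earlier for Psmd1. Of all genes rhythmic in both, 71.1% had an earlier fitted peak in IH. Without the 3 libraries with Saa1 above 10000 FPKM, 13 of the 43 members were rhythmic in both (30.2%, against 20.8% of all genes). Each of these 13 had the earlier peak in IH, while Psmd1 no longer passed in control. Of all genes tested, 20.8% were rhythmic in both, and 16.1% were rhythmic in both with the earlier peak in IH. The excess of members over all genes thus lies in part in the share rhythmic in both. Peaks in IH fell between ZT20 and ZT4 for 20 of the 27 rhythmic members (74.1%), against 40.8% of all genes rhythmic in IH. Those of the 13 rhythmic 19S genes lay between ZT19.9 (Psmc5) and ZT1.71 (Psmc3), and those of the 10 rhythmic 20S genes between ZT0.47 (Psma1) and ZT5.81 (Psmb7). The chaperone Psmd9 peaked at ZT9.06 and the activator Psme3 at ZT16.6, away from both.

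**Figure D2:**
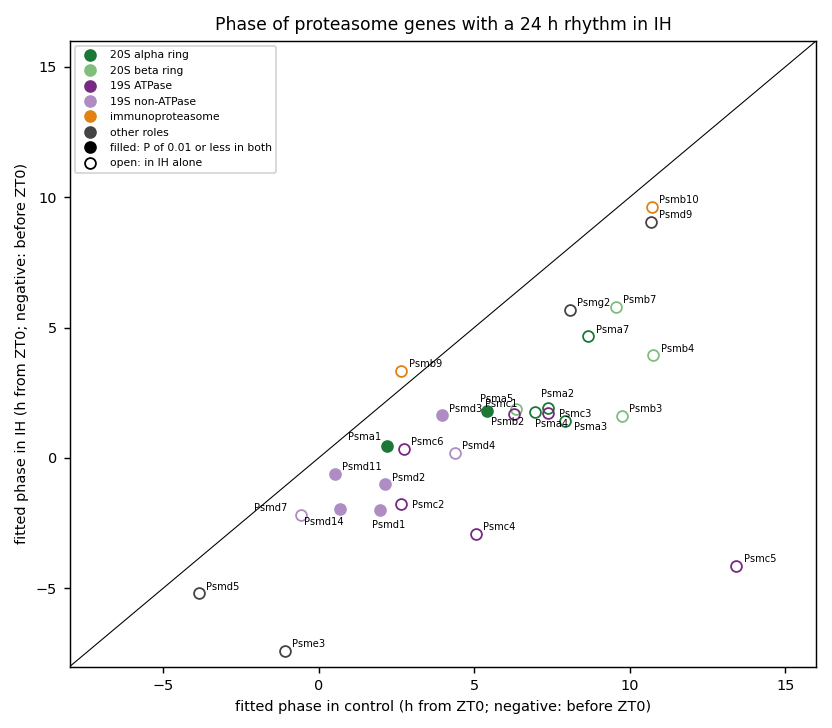
Fitted peak time in control (horizontal, h) and in IH (vertical, h) of the 29 members rhythmic in IH, coloured by role, with the line of equal times. Filled points, rhythmic in both conditions, all lie below the line, while the control peak of an open point comes from a fit that did not pass the test.

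Whether the rhythm itself differed was tested over all 36 libraries in limma, with terms that let the cosine differ by condition. At an adjusted p of 0.05, 0 of the 43 members and 0 of all genes passed, and the smallest adjusted p of a member was 0.796. At an unadjusted P of 0.05, 17 of the 43 did (39.5%), against 4.91% of all genes, and 20 did (46.5%, against 5.58%) without replicate 2 of control ZT12. Without the 3 libraries with Saa1 above 10000 FPKM, 21 did (48.8%, against 10.7% of all genes). The smallest P values in limma were those of Psmc2, a 19S ATPase (P of 0.000668, adjusted p = 0.796), Psmd14 (P of 0.000709, adjusted p = 0.796) and Psmd12, a lid subunit (P of 0.00256, adjusted p = 0.898). A difference in rhythm was therefore not called for any single gene.

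Psmc2 showed the crossing of the conditions. At ZT0 it was at 40.6, 39.7 and 42.1 FPKM in control and 50.1, 43.7 and 45.2 FPKM in IH. At ZT4 it was at 43.2, 40.0 and 39.8 FPKM in control and 34.8, 37.2 and 37.1 FPKM in IH, and at ZT8 at 35.7, 36.3 and 34.6 FPKM against 31.9, 31.2 and 32.2 FPKM. At ZT20 control had 36.0, 38.1 and 32.5 FPKM and IH 44.8, 41.8 and 41.2 FPKM. All IH mice lay above the control mice at ZT20 and ZT0 and below them at ZT4 and ZT8. Psmd12 had the same order at ZT20, ZT0 and ZT8 but overlapped at ZT4, where control had 40.3, 35.7 and 39.9 FPKM and IH 33.8, 36.1 and 36.6 FPKM.

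Counted over the 43 genes, the groups that did not overlap changed side through the day. At ZT20, 17 genes had all IH values above all control values (39.5%, against 11.8% of all genes) and 0 had them below (4.18% of all genes). These 17 were 11 of 17 19S genes, 5 of 14 20S genes and Psme3. At ZT0, 9 were higher in IH (20.9%, against 4.59%), 8 of them 19S genes, and 1 was lower, Psmf1 (6.21% of all genes). Without replicate 2 of IH ZT0 these counts were 13 (30.2%, against 9.16%) and 1 (8.37% of all genes). At ZT4, 7 were lower (16.3%, against 7.79%), 6 of them 19S genes, and 4 were higher (Psma3, Psmb1, Psmb3 and Psmd9), 9.30% against 26.7% of all genes. At ZT8, 12 were lower (27.9%, against 7.16%) and 3 were higher (11% of all genes). At ZT12, 7 were lower (6.74% of all genes), 5 of them 20S genes, and 1 was higher (6.34% of all genes), with the library that stands apart in the control group. Without that library the counts at ZT12 were 8 lower (19% of all genes) and 1 higher (9.32% of all genes). At ZT16, 5 were higher (10% of all genes) and 0 lower (3.84% of all genes). Without replicate 3 of control ZT16 they were 11 (25.6%, against 14.3%) and 0 (11.7% of all genes).

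**Figure D3:**
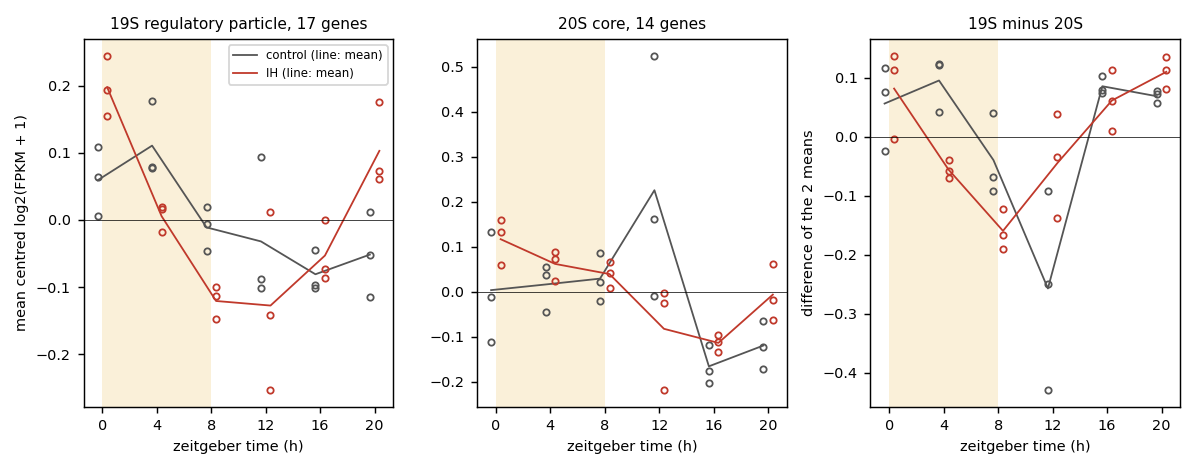
Mean centred log2(FPKM + 1) of the 17 genes of the 19S particle (left), of the 14 constitutive genes of the 20S core (middle) and their difference (right) against zeitgeber time, with a circle per library, lines through the means and the hours of hypoxia shaded. In IH the 19S genes run from 0.20 at ZT0 to -0.12 at ZT8, and at ZT4 the difference lies below 0 in the 3 IH libraries and above 0 in the 3 control libraries.

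The 19S genes were averaged after centring each gene, as were the 14 constitutive 20S genes, a grouping chosen after the values were seen and given without a test. At ZT0 the 19S mean was 0.20 ± 0.04 (SD, n = 3) in IH and 0.06 ± 0.05 in control. At ZT8 it was -0.12 ± 0.02 in IH and -0.01 ± 0.03 in control, and at ZT20 0.10 ± 0.06 against -0.05 ± 0.06. At ZT4 it was 0.01 ± 0.02 in IH and 0.11 ± 0.06 in control. The 20S mean in IH was 0.12 ± 0.05 at ZT0, 0.06 ± 0.03 at ZT4 and 0.04 ± 0.03 at ZT8, and in control 0.00 ± 0.12, 0.02 ± 0.05 and 0.03 ± 0.05. In IH the means of both particles thus declined from ZT0 to ZT8, and in control the 19S mean was lower at ZT8 than at ZT4. Without replicate 2 of IH ZT0 the means there were 0.20 for the 19S genes and 0.15 for the 20S genes. The difference of the particles at ZT4 was -0.04, -0.07 and -0.06 in the IH libraries and 0.12, 0.04 and 0.12 in the control libraries, without overlap. At ZT8 it was -0.17, -0.19 and -0.12 in IH and 0.04, -0.09 and -0.07 in control, again without overlap. At control ZT12 it was -0.25, -0.43 and -0.09, so that the lowest value belonged to the library that stands apart. The 19S genes had a median exonic length of 2820 bases and the 20S genes of 2335 bases.

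To compare levels during and at the end of the daily hypoxia, the 6 IH and 6 control libraries of ZT4 and ZT8 were compared with limma in a fit that allowed for the time point. At a nominal P of 0.01, 7 of the 43 genes were lower in IH (16.3%, against 2.89% of all genes) and 1 was higher (2.33%, against 9.49%). The lower genes were the 19S genes Psmd14, Psmd1, Psmc2, Psmd2, Psmc5 and Psmc4 and the activator Psme3, and the higher gene was the chaperone Psmd9. All but Psmc4 (adjusted p = 0.0574, limma) also passed an adjusted p of 0.05, which 1.93% of all genes did as lower and 6.05% as higher. The differences were small, with a median over the 43 genes of 0.00 on the log2 scale, against 0.04 over all genes.

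Psmd14 was lower by the widest margin, at -0.25 ± 0.04 (SE, log2 scale, adjusted p = 0.0135, limma, above the control mean of its time point in 0 of 6 IH libraries), with the values given above. Psmd1 was at 35.7, 30.7 and 34.2 FPKM at ZT4 in control and 28.4, 29.5 and 27.2 FPKM in IH. At ZT8 it was at 30.0, 30.4 and 30.6 FPKM in control and 25.7, 24.1 and 26.0 FPKM in IH. The groups did not overlap at either time, and the difference was -0.24 ± 0.04 (adjusted p = 0.0144, limma). Psmc2, whose values are given above, was lower by -0.16 ± 0.04 (adjusted p = 0.0253, limma), also in all 6 libraries. Psme3 was at 23.7, 21.7 and 24.3 FPKM at ZT4 in control against 20.0, 19.8 and 20.0 FPKM in IH, and its difference over ZT4 and ZT8 was -0.19 ± 0.04 (adjusted p = 0.0277, limma). At ZT12 its order was the reverse, with 24.4, 30.3 and 27.2 FPKM in IH above 23.4, 14.2 and 24.0 FPKM in control.

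Psmd9 went the other way. At ZT4 it was at 10.2, 11.0 and 10.1 FPKM in control and 12.3, 13.9 and 14.5 FPKM in IH, and at ZT8 at 12.0, 12.9 and 13.9 FPKM in control and 15.0, 14.5 and 15.6 FPKM in IH. The IH mice were all above the control mice at both times, with a difference of 0.28 ± 0.05 (adjusted p = 0.0185, limma). The annotation places a noncoding gene on the opposite strand over 1849 exonic bases of Psmd9, and the strand setting of the quantification is not given in the sources used here. Psmg2, a chaperone of the alpha ring, had a difference of 0.17 ± 0.06 (adjusted p = 0.0888, limma) and Psmb1, a noncatalytic beta subunit, 0.11 ± 0.04 (adjusted p = 0.113, limma), neither of which passed, although both lay above the control mean in 6 of 6 IH libraries.

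By role, the estimates at ZT4 and ZT8 were below 0 for 5 of 6 ATPase genes and 10 of 11 non-ATPase genes of the 19S particle, with medians of -0.11 and -0.10, against 35.1% of all genes. They were below 0 for 2 of 7 alpha-ring genes and 0 of 7 beta-ring genes, with medians of 0.01 and 0.06. The sign of the 20S estimates depended on the scaling: with a median of ratios, 6 of 7 alpha-ring and 4 of 7 beta-ring estimates were below 0, and so were all 17 of the 19S particle. Under that scaling 14 of the 43 genes were lower at a nominal P of 0.01 (5.91% of all genes), of which 10 were 19S genes and 2 were alpha-ring genes (Psma1 and Psma5), and Psmd9 alone was higher (5.96% of all genes). Of 6 hepatocyte markers, 2 were higher in IH at these times (33.3%, against 9.49% of all genes), Apoa1 (0.34 ± 0.06 on the log2 scale) and Asgr1 (0.29 ± 0.05). The estimates of Alb, Ttr and Cps1 were 0.19, 0.24 and 0.07, that of Hnf4a was -0.21, and none of these passed. By the same test 0 of 9 leukocyte markers passed (2.89% of all genes were lower and 9.49% higher). Their estimates ran from -0.50 ± 0.18 for S100a8 to 0.26 ± 0.16 for Cd74, with a median of -0.16 and 6 of 9 below 0. The part of the hepatocyte and leukocyte markers in the differences was not tested.

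**Figure D4:**
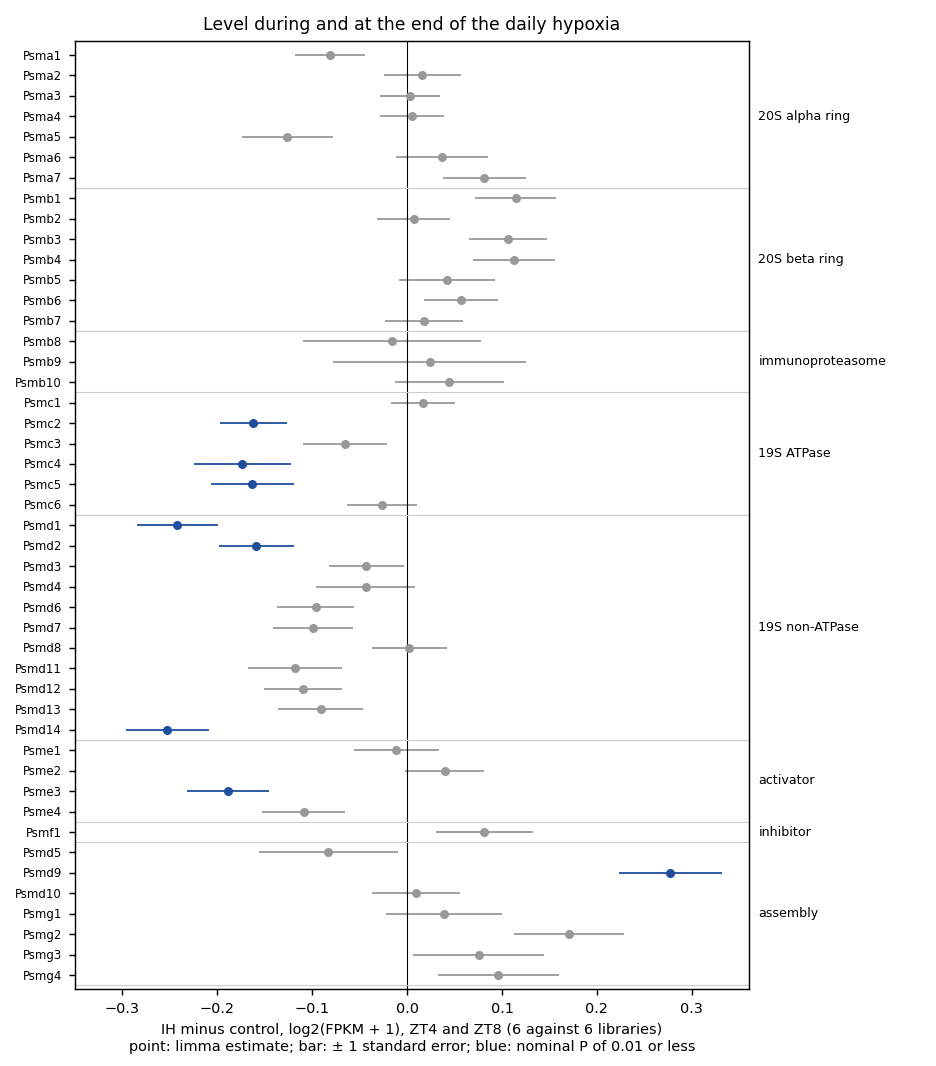
Difference of IH minus control in log2(FPKM + 1) over ZT4 and ZT8 (horizontal, point with 1 standard error, 6 against 6 libraries) for the 46 members by role. Blue points passed a nominal P of 0.01: 7 lie below 0, of which 6 are 19S genes, and Psmd9 lies above 0.

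Over all 6 time points, 0 of the 43 genes passed a nominal P of 0.01 in limma (2.68% of all genes were higher and 0.666% lower), and at a P of 0.05 only Psmc6 did, a 19S ATPase (0.08 ± 0.03, limma, P of 0.0207, adjusted p = 0.354). Next in order in limma were Psmd9 (0.09 ± 0.05, adjusted p = 0.542) and Psmc1 (0.04 ± 0.03, adjusted p = 0.647) among the positive estimates, and Psme1 (-0.10 ± 0.06, adjusted p = 0.562) had the smallest P among the negative estimates. The count depended on ZT12: without its 6 libraries, 6 genes were higher in IH (7.47% of all genes were) and 0 lower (1.21% of all genes), namely Psma7, Psmb1, Psmb3, Psmb4, Psmc1 and Psmd9, by 0.09 to 0.13 on the log2 scale.

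The immunoproteasome subunits are made mostly in immune cells and in cells exposed to interferon, and each replaces a catalytic beta subunit, Psmb8 that of Psmb5, Psmb9 that of Psmb6 and Psmb10 that of Psmb7. The median level of Psmb8 was 20.7% of that of Psmb5 in control and 17.4% in IH, that of Psmb9 12.8% and 10.3% of Psmb6, and that of Psmb10 17.2% and 17.0% of Psmb7. At ZT4 the values of Psmb8 were 17.8, 14.8 and 15.9 FPKM in control and 13.2, 16.2 and 15.1 FPKM in IH, and at ZT8 17.6, 14.9 and 14.1 FPKM in control and 16.8, 19.7 and 13.5 FPKM in IH. The groups overlapped at both times, as they did for Psmb9 and Psmb10. At ZT12 all IH mice lay below all control mice for Psmb8 and Psmb9 (6.74% of all genes). At ZT20 they did so for Psmb9 (4.18% of all genes). Level estimates over all 6 time points were -0.20 ± 0.09 for Psmb8 (adjusted p = 0.439, limma), -0.27 ± 0.13 for Psmb9 (adjusted p = 0.445) and -0.14 ± 0.09 for Psmb10 (adjusted p = 0.593). The log2 ratio to the constitutive partner differed between IH and control at ZT4 and ZT8 by -0.06 for Psmb8, -0.03 for Psmb9 and 0.03 for Psmb10, with two-sided exact permutation p of 0.535, 0.775 and 0.695 (0.775 each after adjustment over the 3 pairs), where the smallest p the 400 arrangements allow is 0.005. A difference was thus not detected, which does not show that the ratios are alike. Over all 6 time points, the ratio differed between IH and control by -0.23 for Psmb8 (permutation p = 0.00811, adjusted over the 3 pairs 0.0243) and -0.30 for Psmb9 (permutation p = 0.0218, adjusted 0.0327), and by -0.11 for Psmb10 (permutation p = 0.141). Without replicate 1 of control ZT0 and replicate 2 of control ZT12, whose values are given further on, the differences were -0.17 (permutation p = 0.0294), -0.20 (permutation p = 0.0484) and -0.04 (permutation p = 0.480), and none passed after adjustment (0.0725 for Psmb8 and for Psmb9).

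Single control libraries carried the highest values of these subunits. Replicate 2 of control ZT12 had 39.5 FPKM of Psmb8 and 60.9 FPKM of Psmb10, against 19.6 and 16.0 FPKM and 36.0 and 23.0 FPKM in the other mice of its group. Replicate 1 of control ZT0 had 34.4 FPKM of Psmb9, against 10.1 and 14.3 FPKM, and also the highest value of Isg15, an interferon-stimulated gene (25.3 FPKM). Leukocyte markers moved with the former, and their part in it was not tested. In IH, Psmb10 peaked at ZT9.64 (adjusted p = 0.000291, limma) and Psmb9 at ZT3.35 (adjusted p = 0.0113), and Psmb8 had a nominal P of 0.0641. In control, 0 of the 3 passed in limma, and Psmb10 had a nominal P of 0.027. Psmb9 overlaps the first exons of Tap1 by 212 exonic bases on the opposite strand, and Tap1, a peptide transporter, was rhythmic in IH (adjusted p = 0.000991, limma) and in control (adjusted p = 0.0116).

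**Figure D5:**
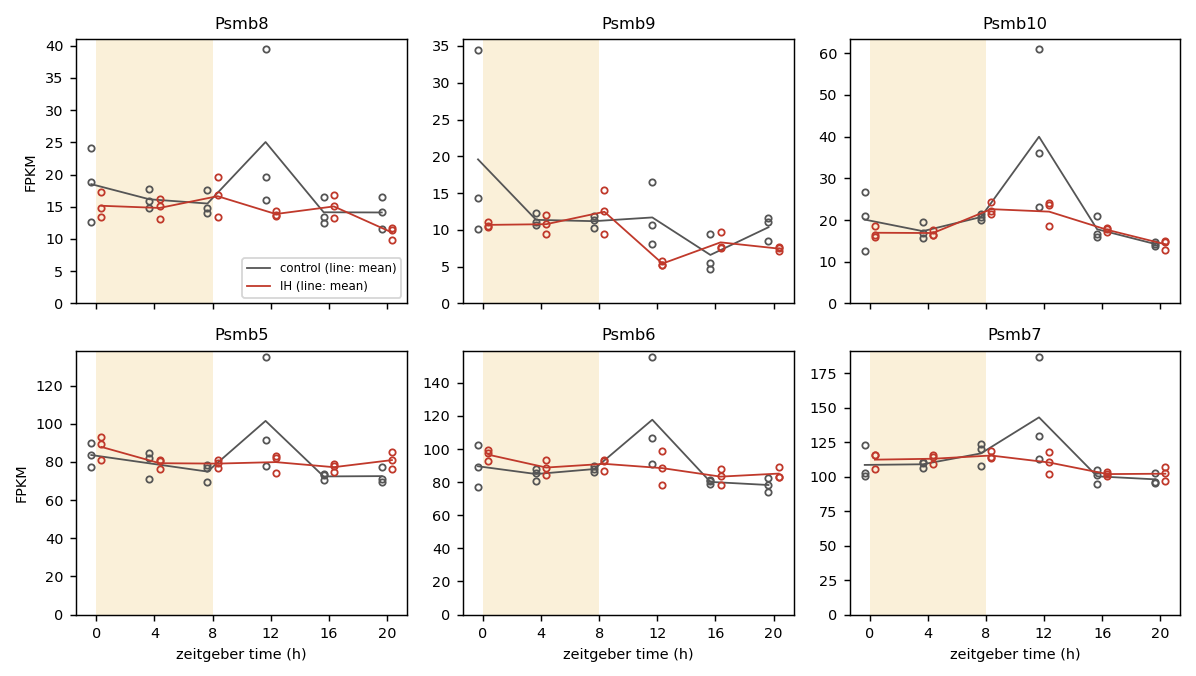
FPKM of the immunoproteasome subunits Psmb8, Psmb9 and Psmb10 (top) and of the subunits they replace, Psmb5, Psmb6 and Psmb7 (bottom), against zeitgeber time, with a circle per library, lines through the means and the hours of hypoxia shaded. Control ZT12 holds the highest library of each gene but Psmb9, whose highest library is at control ZT0.

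A list of 27 genes outside the prefixes covers ubiquitin, its shuttles, the remaining proteasome parts and the regulators of the pathway. In IH 12 of them were rhythmic (44.4%, against 39.9% of all genes) and in control 4 were (14.8%, against 20%), shares near those of all genes. At ZT4 and ZT8, 5 were lower (18.5%, against 2.89%) and 4 higher (14.8%, against 9.49%) in IH, and the median over the list was -0.02, against 0.04 over all genes. The lower genes were the ubiquitin shuttles Ubqln1 (-0.25 ± 0.03, adjusted p = 0.00648, limma) and Rad23b (-0.18 ± 0.04), the unfoldase Vcp (-0.19 ± 0.04), its cofactor Nploc4 (-0.14 ± 0.04) and the proteasome-bound deubiquitinase Usp14 (-0.15 ± 0.04). Among the higher genes were Rps27a (0.17 ± 0.05), which encodes ubiquitin fused to a ribosomal protein, and the small 19S subunit Shfm1 (0.16 ± 0.04). Nfe2l1, the factor that raises proteasome genes when proteasome activity falls, had a difference of -0.07 ± 0.07 (adjusted p = 0.575, limma) and Nfe2l2, the antioxidant factor, 0.44 ± 0.15 (adjusted p = 0.0871), and neither passed. Over all time points Txnl1, a thioredoxin-like protein bound to the 19S particle, passed the nominal P of 0.01 as higher but not the adjusted p of 0.05 (0.13 ± 0.04, adjusted p = 0.206, limma).

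Of 14 genes of antigen presentation and interferon response, 6 were lower in IH at ZT4 and ZT8 (42.9%, against 2.89% of all genes) and 0 were higher (9.49% of all genes), and their median was -0.16. Isg15 was at 12.7, 14.9 and 15.9 FPKM at ZT4 in control and 8.87, 6.79 and 6.51 FPKM in IH, without overlap, with a difference over both times of -0.80 ± 0.09 (adjusted p = 0.00473, limma). Irgm1 (-0.48 ± 0.06), Ifit1 (-0.54 ± 0.11), Usp18 (-0.38 ± 0.08) and Irf7 (-0.29 ± 0.05) were also lower. The immunoproteasome subunits, by contrast in count, had 0 of 3 called at these times, with estimates of -0.02 ± 0.09, 0.02 ± 0.10 and 0.04 ± 0.06 for Psmb8, Psmb9 and Psmb10, and the difference between these lists was not tested.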

How the data were processed

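Liver poly(A) RNA of 36 mice was sequenced from stranded libraries. The authors aligned reads to mm10 with TopHat2 2.1.1 and made the deposited FPKM values per mouse with Cufflinks 2.2.1 (versions from the submitters' processing notes). FPKM values carry no read counts, so depth is unknown and no counting interval is given. The values came as 1 table per condition with identical column names, and the condition of each was read from the table's own name. Each table held 24883 rows and 24346 symbols, and the 280 symbols on several rows were left out.

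Values were analysed as log2(FPKM + 1), which understates changes of low genes, with limma 3.58.1 in R 4.3.3 (intensity trend), restricted to 13215 genes that averaged 0.1 FPKM or more. Rhythms, their interaction with condition and levels were fitted on all these genes, with Benjamini-Hochberg adjustment over all of them. The BIO_CYCLE test of the study was not used here. Ratios of subunits were compared with exact permutation tests within time point, and with random draws of the arrangements over all 6 time points. Scripts were tested on simulated data. Figures were drawn with matplotlib 3.10.9 in Python 3.11.15.

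Any member could be named. Detail was given to the immunoproteasome subunits and their partners, the 4 smallest P per rhythm test, the 3 smallest P per direction of each level comparison and of the interaction, and the highest and lowest member per role, and list genes were named at a P of 0.01, of which some are not reported here. Members and lists were chosen with earlier results of these data known. Gene positions came from GENCODE for mm10 (46 of 46 matched), where 13 members overlap another gene in exons, and promoters from RefSeq (GRCm38.p6). Psmb1, Psmb2, Psmb7, Psmc3, Psmd3, Psmd7 and Psmg2 had no entry there. Pseudogenes of Psmb5, Psmb6 and Psmb7 are in the annotation and could share reads. Each library came from a separate mouse, and replicate numbers name mice. Which mice shared a cage is not given in the sources used here, so an effect of the cage could not be allowed for. Alternatives covered scaling, pseudocount, filter, the rhythm test, the spread, gene length and leaving out libraries.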

Additional observations from a re-analysis of the deposited data

How the results depend on the processing

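The count of 7 members rhythmic in control was 2 with a median of ratios, 4 with the length trend of each library removed, 13 with JTK_Cycle, 14 with a spread shared by both conditions, 13 without the ZT12 libraries, 14 without the libraries with Saa1 above 10000 FPKM, and 15 without replicate 1 of control ZT0 and replicate 2 of control ZT12. Leaving out 1 library gave 5 to 16, and 16 came from leaving out replicate 2 of control ZT12. The 27 in IH were 16 with the shared spread, and 23 to 29 when 1 library was left out. The rhythm difference gave 0 members at the adjusted p, 17 at an unadjusted P of 0.05, 20 without replicate 2 of control ZT12 and 18 without the ZT12 libraries. The 8 calls at ZT4 and ZT8 (7 lower, 1 higher) were 15 (14 lower) with a median of ratios, with quantile normalization and with the length trend removed, 4 (3 lower) with no time factor, 3 (2 lower) at ZT4 alone and 2 (2 lower, 0 higher) at ZT8 alone. Leaving out 1 library gave 7 to 10 calls, 6 to 8 lower and 1 to 3 higher; the 3 came without replicate 2 of control ZT8, and 2 each without replicate 2 of IH ZT4, replicate 3 of IH ZT8 or replicate 1 of control ZT4. Over all time points, 0 became 6, all higher, without ZT12 and 1, higher, without the 2 control libraries named above. The ratio over all 6 time points was -0.23 for Psmb8 and -0.30 for Psmb9, past the threshold, and -0.17 and -0.20, also past it before adjustment over the 3 pairs, without those 2 control libraries. The cause of these changes was not tested. The length trend, the pairs of left-out libraries and the unadjusted counts without libraries were chosen after seeing the data. No scaling moved the median of all genes by over 0.1. The deviations of same-numbered mice had a mean r of 0.05 (18 pairs, from -0.18 to 0.29). In 6 pairs r was above 0.1, among them those of ZT12 (0.29, 0.27 and 0.14). These values do not settle whether the numbers pair the samples, and the main fits did not use them as pairs. With the replicate block the counts were 6 in control, 25 in IH, 7 lower and 2 higher at ZT4 and ZT8, and 0 over all time points. Depth is unknown, which limits the lowest members most.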
